A study of Homo sapiens with 3 samples.

Results

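The transforming growth factor beta (TGF-beta) pathway was followed through 10 genes: the ligands TGFB1 and TGFB2, the receptors TGFBR1 and TGFBR2, the signal transducers SMAD2, SMAD3 and SMAD4, the inhibitory SMAD6 and SMAD7, and the corepressor gene SKIL. They were found by their symbols in the deposited gene table, where they took up 11 of 57736 rows, because SMAD4 stood in 2 of them. RNA came from TOV21G, a human ovarian clear cell carcinoma line with a mutated gene for ARID1A, a component of the SWI/SNF chromatin remodeller. In the HDAC2 knockdown group (n = 2), a lentiviral short hairpin RNA lowered HDAC2, a histone deacetylase, and each of its libraries carried a different hairpin, shRNA 1 or shRNA 2. The comparison group, WT (n = 1), was the same line labelled wild type for HDAC2, so all 3 libraries share the ARID1A mutation. Treatment of the WT cells with a control virus is not stated, so depletion of HDAC2 and transduction cannot be told apart.

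TGF-beta ligands are secreted in a latent form and, once released, bring together the type II receptor TGFBR2 and the type I receptor TGFBR1, both serine/threonine kinases. TGFBR1 phosphorylates SMAD2 and SMAD3, which join SMAD4 and bind genes in the nucleus. SMAD7 and SMAD6 block the receptors, SKIL (also called SnoN) represses SMAD-bound genes by recruiting corepressors that include histone deacetylases, and SMAD7 and SKIL are themselves induced by the pathway as negative feedback. In epithelial cells the pathway is known for arresting growth and for inducing matrix and mesenchymal genes.

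The libraries held 11398791 (shRNA 1), 11225492 (shRNA 2) and 10138479 (WT) estimated counts, and 14524 genes passed a filter on low counts, among them all 10 genes. Levels are given as CPM, counts scaled to library size with TMM factors. In these, 3 counts, the approximate 1-sided 95% Poisson upper limit for a count of 0, equal 0.261, 0.265 and 0.301 CPM in the same order. HDAC2 itself had 33.4 CPM with shRNA 1 and 51.5 CPM with shRNA 2, against 105 CPM in WT cells, and its fitted log2 change was −1.31 ± 0.20 (SE; adjusted p = 4.82e-04, edgeR quasi-likelihood test). Of the epithelial and clear cell markers, PAX8 reached 250, 174 and 263 CPM in shRNA 1, shRNA 2 and WT cells, while NAPSA, CDH1 and KRT7 had at most 20 counts in any library. The p-values rest on the spread between the hairpin libraries, drawn mostly from all genes together (1 residual and 18.9 prior degrees of freedom). That spread lies between different hairpins and may be technical, and the single WT library is taken to be equally variable. In bulk RNA, fewer cells of a kind and less RNA per cell cannot be told apart.

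Promoter sequence from 250 bases before to 50 bases after the annotated start (RefSeq, GRCh38.p14) was examined for the 7 genes with at most 2 listed starts. TGFBR1, SMAD3 and SMAD7, with 8, 5 and 3 starts, were left out. The windows shown are those of the 3 genes with a whole SMAD-binding element, an AP-1 site or a cAMP response element. SMADs, AP-1 and CREB family factors are known to bind these elements. The windows of TGFB2 and SMAD2, not shown, hold 3 and 1 of the shorter SMAD boxes. Unlike the other windows, that of TGFB2 (chr1:218345086-218345385) holds no transcript start annotated in GENCODE and lies before the gene start given there. It is still counted among the 7 windows. Both strands were searched, and capitals mark the SMAD box GTCT (read as AGAC on the other strand), the SMAD-binding element GTCTAGAC that is made of a pair of boxes, the AP-1 site TGACTCA (read as TGAGTCA on the other strand) and the cAMP response element (CRE) TGACGTCA.
SKIL, chr3:170357465-170357764, plus strand: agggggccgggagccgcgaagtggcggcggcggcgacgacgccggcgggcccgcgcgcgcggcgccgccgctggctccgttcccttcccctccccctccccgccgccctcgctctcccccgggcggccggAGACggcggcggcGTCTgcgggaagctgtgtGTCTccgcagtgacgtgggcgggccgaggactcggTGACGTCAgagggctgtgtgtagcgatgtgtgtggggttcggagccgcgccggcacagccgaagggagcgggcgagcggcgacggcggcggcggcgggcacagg
TGFBR2, chr3:30606351-30606650, plus strand: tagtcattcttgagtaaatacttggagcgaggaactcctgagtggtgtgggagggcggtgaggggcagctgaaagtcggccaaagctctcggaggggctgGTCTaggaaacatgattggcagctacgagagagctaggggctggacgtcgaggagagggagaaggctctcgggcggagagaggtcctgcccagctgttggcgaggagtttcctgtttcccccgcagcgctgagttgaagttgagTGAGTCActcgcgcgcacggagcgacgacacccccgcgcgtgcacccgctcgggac
SMAD6, chr15:66701986-66702285, plus strand: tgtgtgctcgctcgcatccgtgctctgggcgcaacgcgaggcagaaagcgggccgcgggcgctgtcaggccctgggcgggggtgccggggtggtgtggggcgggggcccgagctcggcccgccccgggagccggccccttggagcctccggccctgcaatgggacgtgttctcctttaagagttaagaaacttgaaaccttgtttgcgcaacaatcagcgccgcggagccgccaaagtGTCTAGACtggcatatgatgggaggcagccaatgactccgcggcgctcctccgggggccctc
The SKIL window held 3 SMAD boxes and a CRE at position −54, counted from the start with −1 as the last base before it. The TGFBR2 window held 1 SMAD box at −150 and an AP-1 site at −6, and the SMAD6 window held the whole SMAD-binding element at −12. A SMAD box was present in 5 of the 7 windows, but also in 84.0% of 35116 promoters of the same length, whereas the SMAD-binding element stood in 1 of the 7 and in 0.202% of all. The AP-1 site was found in 1 of the 7 windows and in 4.95% of all promoters. The CRE, which contains the shorter core TGACG, was likewise found in 1 of the 7, and in 1.85% of all. Also searched were the CAGA box CAGAC (2 of 7 windows, 45.3% of all promoters) and the GC-rich SMAD site GGCGCC (3 of 7, 19.2%). The core TGACG was in 3 of 7 windows (24.6% of all), the GC box GGGCGG in 6 (45.0%) and the CCAAT box in 3 (34.6%). A match describes letters only, and no binding was measured here.

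In HDAC2 knockdown cells, SKIL rose and the other 9 genes did not pass the test. Of the 10 genes, 1 rose and 0 fell at an adjusted p under 0.05, against 7.72% of all tested genes called in either direction, 3.96% higher and 3.76% lower. Both receptor genes, SMAD2, SMAD4 and SKIL lay above WT with each hairpin (5 of 10 genes, against 39.9% of all tested genes). TGFB1, TGFB2, SMAD3 and SMAD7 lay below WT with each hairpin (4 of 10, against 39.3%), and SMAD6 lay on either side. The median log2 change over the 10 genes was 0.05, beside 0.01 over all tested genes. It was −0.01 once a trend with transcript GC content, described further on, was removed.

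**Figure D1:**
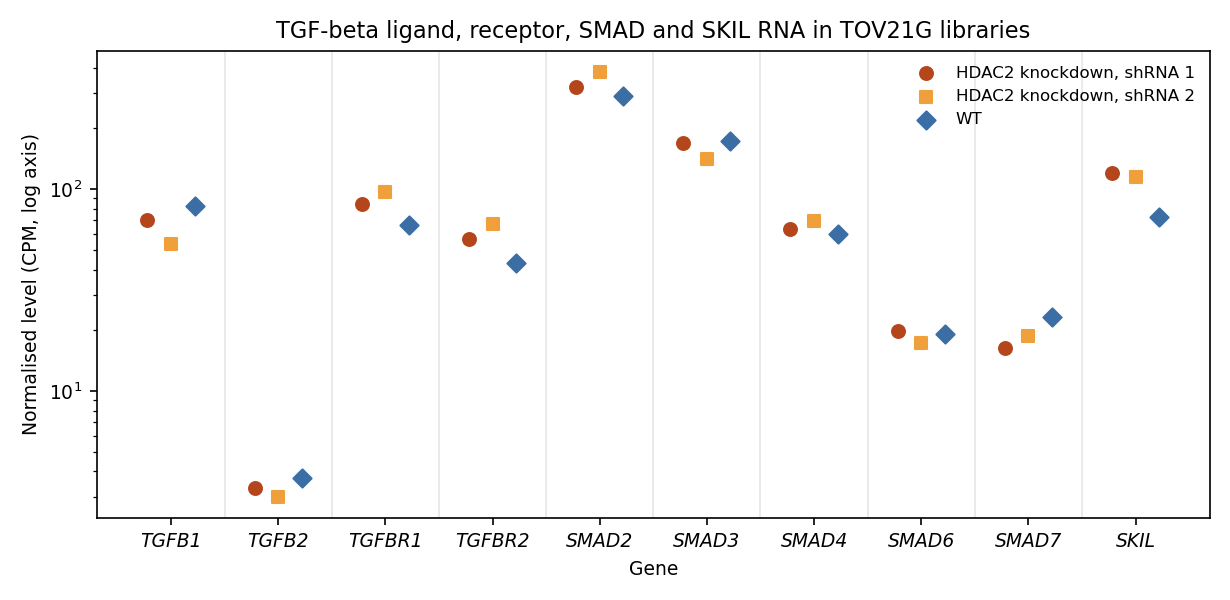
Normalised level (CPM, log axis) of each of the 10 genes in the shRNA 1, shRNA 2 and WT libraries, 1 point per library. SKIL stands at 121 and 114 CPM in the knockdown libraries, against 73.1 CPM in WT cells, and TGFB2 at 3.0 to 3.71 CPM.

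TGFB1, the main TGF-beta ligand of most tissues (ENSG00000105329, GRCh38 chr19:41301587-41353911, minus strand), had 70.6 CPM with shRNA 1 and 53.5 CPM with shRNA 2, against 82.7 CPM in WT cells. Both knockdown libraries were below WT, and the shRNA 2 library was the lowest. Knockdown libraries averaged 62.0 ± 12.1 CPM (SD, n = 2), and the log2 change of −0.41 ± 0.18 (SE) did not pass (adjusted p = 0.177). TGFB1 shares 215 exonic bases with HNRNPUL1 on the opposite strand, which had 2537, 2557 and 3285 counts in shRNA 1, shRNA 2 and WT cells. No source used here states a strand setting for the counting, so whether reads over those bases were told apart is not known.

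TGFB2, a second isoform of the ligand (ENSG00000092969, chr1:218346235-218444619, plus strand), had the fewest counts of the 10 genes, with 38 for shRNA 1 and 34 for shRNA 2, against 37 for WT. These are 3.31, 3.0 and 3.71 CPM, and the exact Poisson 95% intervals of the counts (26.9 to 52.2, 23.5 to 47.5 and 26.1 to 51.0) overlap one another, covering counting error only. A difference was not detectable at this depth (log2 change −0.23 ± 0.42, adjusted p = 0.786). Of the sequences as long as a read in TGFB2 transcripts, 24.8% also occur in other genes of GENCODE. There, TGFB2 shares 1371 exonic bases with TGFB2-OT1 on the same strand. TGFB2-OT1 has no row in the deposited counts, so how far this sharing touched the TGFB2 count is not known.

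The genes of both receptor chains had higher values in the knockdown libraries without passing the test. TGFBR2, the type II kinase that binds the ligand first (ENSG00000163513, chr3:30606502-30694142, plus strand), had 56.4 CPM with shRNA 1 and 67.0 CPM with shRNA 2, against 42.9 CPM in WT cells. Its log2 change of 0.52 ± 0.18 had an adjusted p of 0.0874. It was 0.0485 when libraries were scaled by size alone, and 0.0846 to 0.473 under the other alternatives. TGFBR1, the type I kinase that phosphorylates the SMADs (ENSG00000106799, chr9:99104038-99154192, plus strand), had 84.7 and 96.8 CPM with shRNA 1 and shRNA 2, against 66.1 CPM in WT cells. Its log2 change was 0.46 ± 0.18 (adjusted p = 0.122). For both, the knockdown values stayed clear of the WT value, and shRNA 2 gave the higher level.

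None of the 3 SMADs that carry the signal passed the test. SMAD2, which the receptor phosphorylates (ENSG00000175387, chr18:47808957-47931146, minus strand), had 321 CPM with shRNA 1 and 381 CPM with shRNA 2, against 288 CPM in WT cells, a log2 change of 0.28 ± 0.17 (adjusted p = 0.345). SMAD3, the other substrate of the receptor, which binds DNA directly (ENSG00000166949, chr15:67063763-67195195, plus strand), had 170 and 141 CPM with shRNA 1 and shRNA 2, against 174 CPM in WT cells. Its log2 change was −0.16 ± 0.18 (adjusted p = 0.628), and the single hairpins lay at −0.03 (shRNA 1) and −0.30 (shRNA 2). SMAD4, the common partner of all receptor-regulated SMADs (ENSG00000141646, chr18:51028394-51085045, plus strand), had 63.8, 69.9 and 60.2 CPM in shRNA 1, shRNA 2 and WT cells. It gave a log2 change of 0.15 ± 0.17 (adjusted p = 0.651). The other row that carries the SMAD4 symbol (ENSG00000267699, named AC091551.1 in GENCODE) held 15, 0 and 11 counts in the same libraries, and 73.5% of its read-length sequences occur in other genes, so its count is uncertain.

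Neither inhibitory SMAD gene passed the test. SMAD7, which blocks TGFBR1 and recruits ubiquitin ligases to it (ENSG00000101665, chr18:48919853-48952052, minus strand), had 16.3 CPM with shRNA 1 and 18.8 CPM with shRNA 2, against 23.3 CPM in WT cells. Both knockdown libraries were below WT, and the log2 change of −0.41 ± 0.21 did not pass (adjusted p = 0.249). SMAD6, which mainly restrains the bone morphogenetic protein (BMP) branch (ENSG00000137834, chr15:66702228-66782848, plus strand), had 19.9 and 17.2 CPM with shRNA 1 and shRNA 2, against 19.1 CPM in WT cells. The WT value fell between the hairpins, and the log2 change was −0.05 ± 0.22 (adjusted p = 0.928).

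SKIL, which encodes the SMAD corepressor SnoN (ENSG00000136603, chr3:170357678-170396835, plus strand), had 1384 counts with shRNA 1 and 1296 with shRNA 2, against 730 in WT cells. These are 121 and 114 CPM, against 73.1 CPM. The hairpin libraries stood at 165% and 157% of the WT level, averaging 118 ± 4.33 CPM (SD, n = 2). The hairpin values lay close together and well above WT. The fitted rise was 1.61-fold, a log2 change of 0.68 ± 0.18 (adjusted p = 0.0217, edgeR quasi-likelihood test). The call was lost once a trend with transcript GC content was taken out (log2 change 0.22, adjusted p = 0.528) and with DESeq2's Wald test (adjusted p = 0.0627), and no gene was called when low counts were not filtered (SKIL adjusted p = 0.468).

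**Figure D2:**
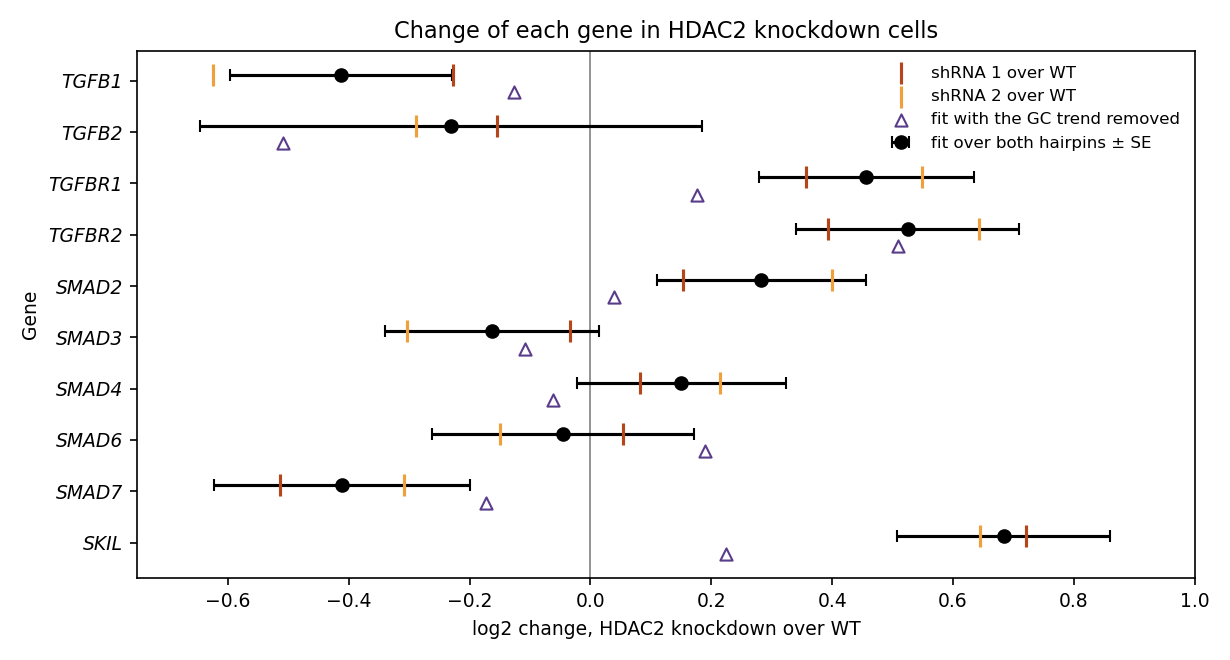
Change of each gene on the log2 scale, HDAC2 knockdown over WT: dots with bars give the fit over both hairpins ± SE, ticks each hairpin against WT, and triangles the fit with the GC trend removed. SKIL lies at 0.68 with its hairpins at 0.72 and 0.64, and at 0.22 once the trend is removed, while TGFBR2 keeps 0.51 of 0.52.

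The GC content of transcripts moved with the change across all genes, so these values are given beside the results. Over the 14124 tested genes with a known GC content, Spearman's correlation of the log2 change with GC content was −0.48, a description across genes of 3 shared libraries. Genes under 40% GC had a median log2 change of 0.33 (290 called higher and 17 lower among 2264). Genes over 60% GC had a median of −0.29 (8 higher and 138 lower among 1869). With the trend removed, 4.0% of genes were called, 202 higher and 363 lower, where 575 higher and 546 lower were called without the removal.

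SKIL transcripts have 33.4% GC, the lowest of the 10 genes, and TGFB1 has 63.5%, the highest. TGFB2 (38.9%), TGFBR1 (39.0%), SMAD2 (40.2%), SMAD4 (41.1%), TGFBR2 (47.4%) and SMAD3 (50.4%) lie between, with SMAD7 at 58.7% and SMAD6 at 58.8%. GC content was read from the longest listed transcript. For SMAD2 this has 34526 bases, far more than for the other genes, so its GC content and its change with the trend removed are less certain. After removal of the trend the log2 change was 0.51 for TGFBR2 (adjusted p = 0.124), 0.18 for TGFBR1 (adjusted p = 0.617), 0.04 for SMAD2 (adjusted p = 0.929) and −0.13 for TGFB1 (adjusted p = 0.758). It was −0.17 for SMAD7, −0.11 for SMAD3 and −0.51 for TGFB2, and none of the 10 genes passed. TGFBR2 thus had the largest positive value of the 10 in that fit, and its value moved least from the fit without the removal. The part of GC content in these changes was not tested.

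**Figure D3:**
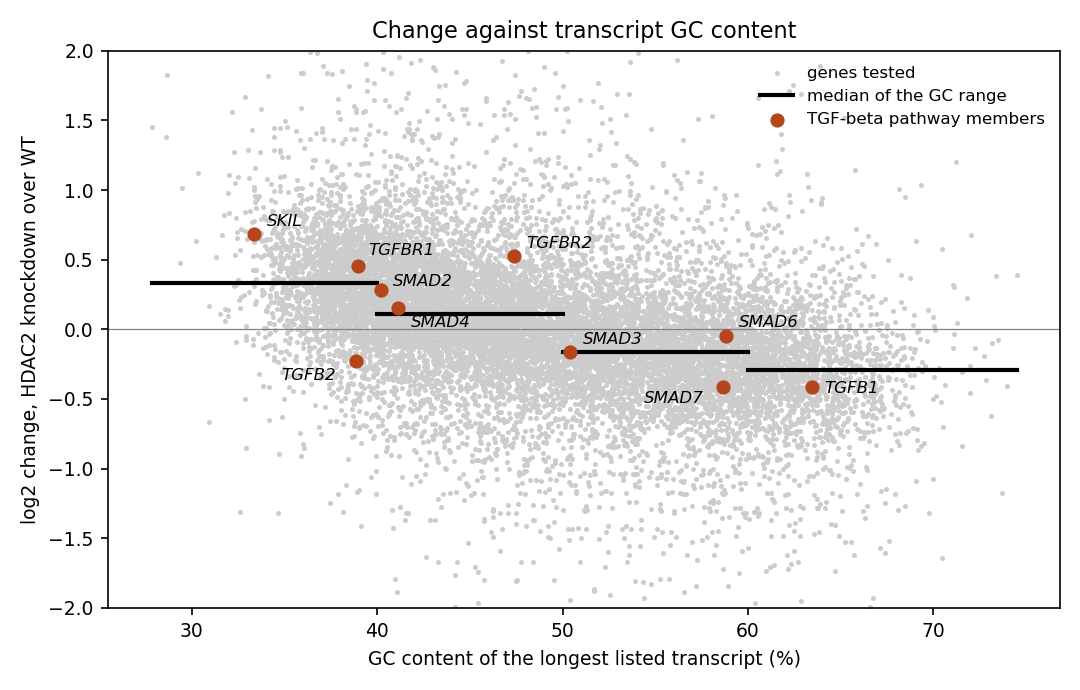
Log2 change (HDAC2 knockdown over WT) against the GC content of the longest listed transcript (%), with grey dots for tested genes, black lines for the median of each GC range and named dots for the 10 genes. The medians run from 0.33 under 40% GC to −0.29 over 60% GC, SKIL is at the left edge with 33.4% GC, and 162 genes lie outside the vertical range drawn.

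Per kilobase of the longest listed transcript, SMAD3 and TGFB1 stood highest. SMAD3 had 27.1, 22.5 and 27.8 CPM per kilobase in shRNA 1, shRNA 2 and WT cells, and TGFB1 had 25.5, 19.3 and 29.8, so their ranges overlap. SKIL (16.8, 15.9 and 10.2), TGFBR1 (13.0, 14.9 and 10.1) and TGFBR2 (12.2, 14.5 and 9.28) followed with ranges that overlap one another. SMAD4 came next with 7.27, 7.97 and 6.87, below all values of TGFBR2. SMAD6 (5.18, 4.49 and 4.99) and SMAD7 (3.68, 4.25 and 5.27) overlapped, and TGFB2 was lowest at 0.655, 0.594 and 0.734. SMAD2 was not placed, because its longest listed transcript of 34526 bases makes its value too low to compare.

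Between the hairpins, 5 of the 10 genes were higher with shRNA 2, where 50.2% of all tested genes were. The log2 difference of shRNA 2 over shRNA 1 ran from −0.40 for TGFB1 to 0.25 for TGFBR2 and SMAD2, and was −0.08 for SKIL. For scale, the SD of this difference over tested genes averaging at least 50 counts was 0.31. These differences have 1 library on each side and no test.

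The genes whose pair of hairpin changes lay nearest to that of SKIL, among well-counted genes without shared reads, were TMEM230, TMEM68 and KPNA5. The distance over the 2 log2 changes, from 3 libraries, was 0.00847 for TMEM230, 0.0181 for TMEM68 and 0.0239 for KPNA5. TMEM230 and TMEM68 passed the test (adjusted p = 0.0200 and 0.0221), and KPNA5 did not (adjusted p = 0.0697). They were picked for their likeness to SKIL, so these test results add no support to its rise.

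Other genes of the TGF-beta superfamily were read in 6 lists by role, in which 7 of 77 tested genes rose (9.09%, against 3.96% of all tested genes) and 0 fell (against 3.76%). With the GC trend removed, 5 rose and 0 fell, where 4.0% of 14124 genes in that fit were called (202 higher and 363 lower). These are shares of small lists chosen with results known, and carry no test. Among 12 genes of ligand storage and activation, 11 were tested, 1 rose and 0 fell, beside 3.96% higher and 3.76% lower of all tested genes here and in the lists that follow. The median log2 change was 0.13, at 0.14 for shRNA 1 and −0.05 for shRNA 2. ITGB8, an integrin chain that releases TGF-beta from its latent complex, had 360 and 297 CPM with shRNA 1 and shRNA 2, against 179 CPM in WT cells (log2 change 0.87 ± 0.18, adjusted p = 0.00538). Both knockdown libraries were well above WT. With the GC trend removed it was at 0.57 (adjusted p = 0.104), and the call was lost.

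Of 12 other receptors, 9 were tested, 1 rose and 0 fell, with a median of 0.39, and of 0.22 with the GC trend removed. BMPR2, the type II receptor for BMPs, had 286 and 292 CPM with shRNA 1 and shRNA 2, against 181 CPM in WT cells (log2 change 0.67 ± 0.17, adjusted p = 0.0207), and its call was also lost with the trend removed (0.35, adjusted p = 0.254). Of 22 other SMADs and SMAD regulators, 21 were tested, 1 rose and 0 fell, with a median of 0.20 (0.19 for shRNA 1 and 0.08 for shRNA 2), and of 0.08 with the trend removed. PMEPA1, a TGF-beta-induced gene whose protein keeps SMAD2 and SMAD3 from the receptor, had 68.0 and 65.9 CPM with shRNA 1 and shRNA 2, against 35.9 CPM in WT cells. Its log2 change was 0.90 ± 0.18 (adjusted p = 0.00433), and 1.04 (adjusted p = 0.00322) with the trend removed.

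Of 30 genes known to be induced through SMAD3 and SMAD4, 25 were tested, 3 rose (against 3.96% of all tested genes) and 0 fell, with a median of 0.14 (0.25 for shRNA 1 and 0.05 for shRNA 2), and of 0.24 with the trend removed. CDKN1A, the cyclin-dependent kinase inhibitor p21, which is also a p53 target, had 1120 and 758 CPM with shRNA 1 and shRNA 2, against 325 CPM in WT cells (log2 change 1.53 ± 0.20, adjusted p = 1.67e-04). CCN2, a matricellular protein gene listed under its older symbol CTGF and also a target of YAP, had 48.9 and 33.9 CPM, against 19.6 CPM in WT cells (log2 change 1.08 ± 0.23, adjusted p = 0.00612). RHOB, a small GTPase gene, was the remaining one and is named after its value was seen (log2 change 0.56 ± 0.17, adjusted p = 0.0460). It lost its call with DESeq2 size factors (adjusted p = 0.0534), upper quartile scaling, a stricter count filter or DESeq2's Wald test (adjusted p = 0.0782). With the GC trend removed, 3 of the 25 genes rose, CDKN1A at 1.75, CCN2 at 1.15 and RHOB at 0.77. In that fit 4.0% of 14124 genes were called, 202 higher and 363 lower.

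Of 17 BMP and activin ligands and antagonists, 7 were tested, 1 rose and 0 fell (beside the same 3.96% and 3.76%), with a median of 0.17. GDF15, a stress-induced divergent ligand of the superfamily, had 160 and 118 CPM with shRNA 1 and shRNA 2, against 77.3 CPM in WT cells (log2 change 0.85 ± 0.20, adjusted p = 0.0125), and stayed past the test with the trend removed (1.13, adjusted p = 0.00361). All 4 ID genes, which BMP signals induce through SMAD1 and SMAD5, were tested and none passed, with a median of −0.14 (−0.24 for shRNA 1 and −0.06 for shRNA 2), which turned to 0.03 with the trend removed. The median over all tested genes, to set beside these, was 0.01. As a check of other cell types, the 6 fibroblast markers summed to 19.5 and 30.8 CPM with shRNA 1 and shRNA 2, against 9.32 CPM in WT cells, nearly all from COL1A2, while COL3A1 and LUM had no count in any library. COL1A2 itself rose, with 19.2 and 29.6 CPM, against 8.72 CPM in WT cells (log2 change 1.48 ± 0.27, adjusted p = 0.00235). DCN had 4 and 13 counts, against 1 in WT cells, THY1 had 0 and 0, against 4, and PDGFRB had 0 and 1, against 1. Leukocyte markers summed to 2.88, 1.24 and 3.81 CPM and endothelial markers to 0.871, 0.353 and 0.200 CPM in shRNA 1, shRNA 2 and WT cells, with CD3E and KDR at 0 in all. Whether the COL1A2 RNA came from the line itself or from other cells was not tested, nor was any part of such cells in the results.

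**Figure D4:**
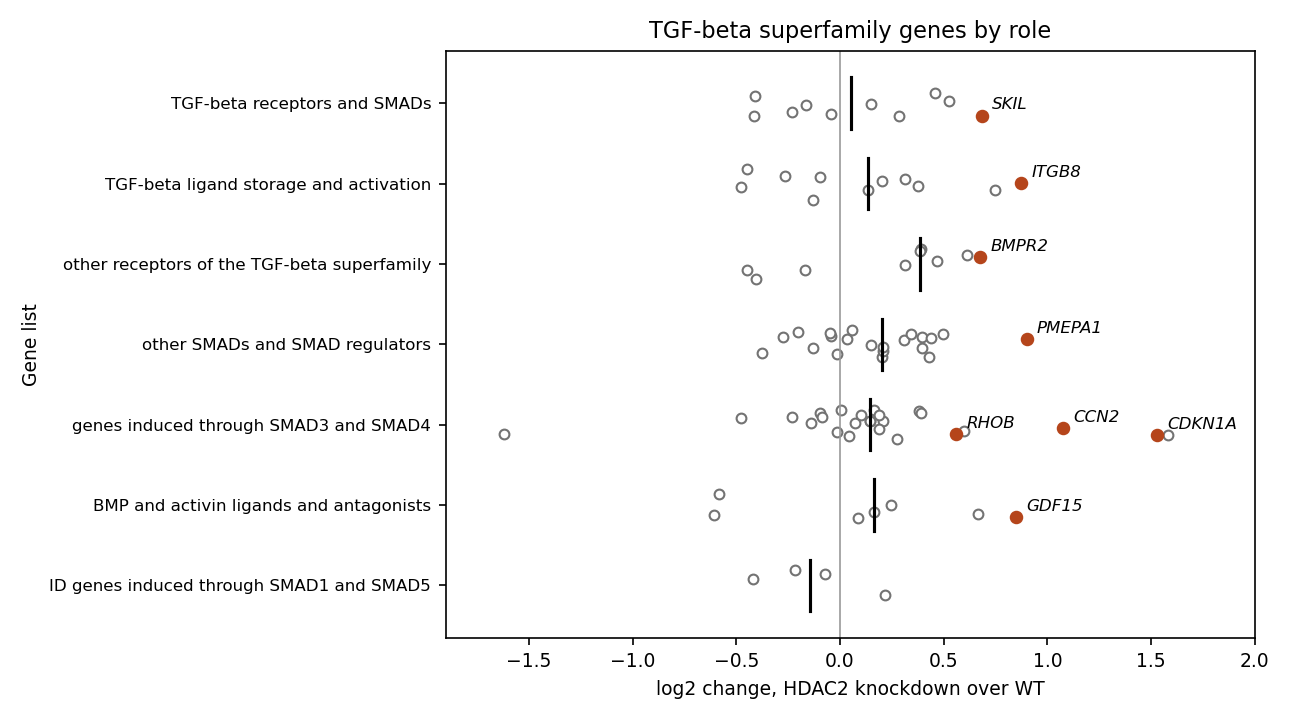
Log2 change (HDAC2 knockdown over WT) of every tested gene of the pathway by list, with filled dots for genes past the test, open dots for the rest and a bar at each list's median. All 8 filled dots lie above 0, from RHOB at 0.56 to CDKN1A at 1.53, and the median of the 10 genes is 0.05.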

How the data were processed

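Total RNA was sequenced in 75 bp reads on a NextSeq 500 after ScriptSeq Complete Gold preparation, according to the labels' protocols. Estimated counts for each Ensembl gene were deposited by the authors, all whole, so rounding altered none, and the submitters' processing notes name RSEM 1.2.3, edgeR and hg19. Libraries were grouped by the labels into HDAC2 knockdown (n = 2) and WT (n = 1).

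Changes were tested with edgeR 4.0.16 (R 4.3.3) by its quasi-likelihood test with TMM scaling, filterByExpr defaults and Benjamini-Hochberg adjustment over all 14524 tested genes, at 0.05, with 1 residual and 18.9 prior degrees of freedom. Single-hairpin changes are from log2 CPM (prior count 2), without a test. Gene IDs were matched to GENCODE 29 (GRCh38; 52300 of 57736 found), which gave positions, GC content (known for 97.2% of tested genes), length and shared 75-base sequence, called shared from 20%. The deposited table gives no coordinates. In the GC correction, a smooth trend with GC content was removed from each library.

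All 10 genes are named, and of each list up to 2 rising and 2 falling genes by smallest adjusted p, plus HDAC2 and the 3 genes nearest to SKIL. The genes and the 6 lists were chosen with earlier results of these data known. Alternatives were other scalings, filters and tests (DESeq2 1.42.0 among them) and leaving out each hairpin.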

Additional observations from a re-analysis of the deposited data

How the results depend on the processing

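No paired analysis was possible because the WT group is a single library that shares no replicate pair with the hairpins. With 1 hairpin left out, no residual degree of freedom remained, so the hairpins' own changes are given without a test, and SMAD6 lay at 0.05 with shRNA 1 alone and −0.15 with shRNA 2 alone. Over all genes, 1121 were called, against 0 without a filter on low counts (2486 at an unadjusted p under 0.05), 306 with DESeq2's Wald test and 565 with the GC trend removed, of which 458 were shared with the 1121. Of the 10 genes, 1 was called as reported, 2 with library size alone (TGFBR2 added, adjusted p = 0.0485) and 0 without the filter, with the GC trend removed or with DESeq2's Wald test. SKIL had an adjusted p of 0.468 without the filter, 0.528 with the trend removed and 0.0627 with the Wald test, and 0.00805 to 0.0294 elsewhere. SMAD4 turned to −0.062 (adjusted p = 0.879) and SMAD6 to 0.19 (adjusted p = 0.683) with the trend removed. Ligand storage and activation had 2 calls with library size alone, and 0 without the filter or with the trend removed. Other receptors had 0 in both of these, and the regulator, SMAD3/SMAD4-induced and BMP lists had 0 without the filter. The cause of these differences was not tested. Over the values of the 10 genes under the alternatives that have a test, 74 kept direction and side of the threshold, 3 lost the call, 1 gained it and 2 turned direction. Because 9 of the genes were not called to begin with, most of the 74 are uncalled genes that stayed uncalled, and the 3 losses are all of SKIL. TGFB2 had no adjusted p with DESeq2's Wald test and is counted among the 74. Summing the SMAD4 rows, chosen after seeing the data, gave 1126 calls.

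The single WT library limits all comparisons, and TGFB2 and the second SMAD4 row are limited by their counts.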

Other observations

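Several genes of the pathway lists, chosen after their values were seen, differed between the hairpins. THBS1, whose product thrombospondin releases latent TGF-beta, had 398 CPM with shRNA 1 and 169 CPM with shRNA 2, against 169 CPM in WT cells. IGFBP3 had 186 and 83.4 CPM, against 103 CPM in WT cells, and TGFBI had 43.5 and 24.9 CPM, against 31.0 CPM in WT cells. The integrin chain gene ITGAV had 401 and 255 CPM, against 264 CPM in WT cells. None of these passed the test, and the difference between hairpins has 1 library on each side.

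Some textbook TGF-beta targets had few reads in this line. FN1 had 3 and 4 counts with shRNA 1 and shRNA 2, against 0 in WT cells. SNAI2 and MMP2 had no count in any library. CDKN2B, which encodes the kinase inhibitor p15, had 30 and 32 counts, against 9 in WT cells (log2 change 1.58 ± 0.60, adjusted p = 0.110, edgeR quasi-likelihood test). BMP4 had 23.5 and 25.9 CPM with shRNA 1 and shRNA 2, against 37.1 CPM in WT cells (log2 change −0.59 ± 0.19, adjusted p = 0.0672). INHBB, an activin subunit gene, had no count in either knockdown library, against 7 in WT cells, and NOG, a BMP antagonist gene, had 1 and 0 counts, against 7. INHBB and NOG, like FN1, SNAI2 and MMP2, did not pass the filter on low counts and were not tested. The genes of this paragraph were likewise chosen after their values were seen.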
